A study of Homo sapiens with 72 samples.

Results

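The mRNAs of 10 subunits of RNA polymerase II (POLR2A, POLR2B, POLR2C, POLR2D, POLR2E, POLR2F, POLR2G, POLR2H, POLR2I and POLR2K) were followed by bulk RNA-seq in U2OS cells, a human osteosarcoma line. The members were chosen by symbol, and each matched 1 of the 60371 Ensembl genes listed. Of 72 wells, 18 received DMSO, the vehicle, and the others received triptolide, homoharringtonine, pyrazolanthrone, nilotinib, miglitol or MK-2206, each at 100 nM, 1000 nM or 10000 nM in 3 wells, and RNA was taken after 12 h. All groups share the same single cell line, which limits what they model, and the labels do not say whether wells came from separate cultures, so the p-values measure the spread between wells, which may be technical.

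RNA polymerase II transcribes the protein-coding genes of the nucleus. POLR2A is its largest subunit, carries the C-terminal repeat domain that kinases phosphorylate during initiation and elongation, and forms the catalytic centre together with POLR2B. POLR2C belongs to the assembly platform, POLR2D and POLR2G form the stalk, POLR2I sits near the jaw, and POLR2E, POLR2F, POLR2H and POLR2K are shared with RNA polymerases I and III. Triptolide binds ERCC3, a subunit of the initiation factor TFIIH, and is known to cause loss of the POLR2A protein. Homoharringtonine blocks translation at the ribosome. Protein was not measured here, and the question was how the POLR2A mRNA and the other subunit mRNAs stood under these compounds.

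The genes lie on 9 chromosomes. On GRCh38 in the GENCODE annotation, POLR2A occupies chr17:7484366-7514616 on the plus strand and overlaps no other annotated gene, and nor do POLR2G, POLR2H and POLR2K. POLR2B overlaps the antisense gene IGFBP7, POLR2C overlaps DOK4, POLR2E overlaps ARHGAP45, POLR2F overlaps C22orf23 and SOX10, and POLR2I overlaps OVOL3 and TBCB. On its own strand POLR2D overlaps RPS26P19, and POLR2B, POLR2C and POLR2F also overlap annotated genes on their own strand, which strand cannot separate. The library kit kept strand, but whether strand was used in counting is not given in the sources used here. Reads from neighbours may therefore be included in the values of all these overlapping members. Promoter windows from RefSeq on GRCh38 were matched for 7 of the 10 genes. The 250 bases upstream of the start are shown for POLR2A, which moved most, and for POLR2D and POLR2E, which moved in opposite directions under triptolide; capitals mark GC boxes, the motif GGGCGG on either strand.

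POLR2A, chr17:7484116-7484365, plus strand: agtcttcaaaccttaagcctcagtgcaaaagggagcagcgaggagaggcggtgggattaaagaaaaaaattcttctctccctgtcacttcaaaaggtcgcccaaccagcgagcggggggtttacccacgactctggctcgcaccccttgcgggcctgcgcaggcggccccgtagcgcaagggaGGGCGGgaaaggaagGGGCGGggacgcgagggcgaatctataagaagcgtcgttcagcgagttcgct
POLR2D, chr2:127858156-127858405, minus strand: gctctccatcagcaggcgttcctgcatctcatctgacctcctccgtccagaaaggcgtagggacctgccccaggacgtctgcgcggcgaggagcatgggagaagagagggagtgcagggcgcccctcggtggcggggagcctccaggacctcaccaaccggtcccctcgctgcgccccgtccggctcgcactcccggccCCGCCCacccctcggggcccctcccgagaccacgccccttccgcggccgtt
POLR2E, chr19:1095376-1095625, minus strand: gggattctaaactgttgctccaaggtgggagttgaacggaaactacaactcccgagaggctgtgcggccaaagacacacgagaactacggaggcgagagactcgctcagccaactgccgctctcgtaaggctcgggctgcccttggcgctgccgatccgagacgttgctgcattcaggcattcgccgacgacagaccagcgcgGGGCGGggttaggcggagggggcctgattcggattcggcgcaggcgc

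A GC box stood within these 250 bases in 5 of the 7 genes read and in 42.6% of 34788 RefSeq promoter windows of the same length. The shares over all windows are per window. POLR2F and POLR2H had more than 1 window, and a gene counted if any of its windows held the motif. The POLR2A window held 2 of them, starting 67 and 52 bases before the start, the POLR2D window held 1 at 51 bases and the POLR2E window 1 at 47 bases. The letters TATAAA and CCAAT, on either strand, were in none of the 7, against 10.8% and 32.0% of all windows. These matches describe letters only.

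Summed expected counts, the estimated reads per library, ranged from 70767 to 68296309. There were 3 libraries under 10000000: triptolide 100 nM replicate 2 (the lowest), DMSO replicate 10 and triptolide 1000 nM replicate 1. The POLR2A share of counts in triptolide 100 nM replicate 2 was 0.153% (108 counts, exact binomial interval 0.125 to 0.184, counting error only), and the other members had 3 to 17 counts there. The markers of the lineage VIM, COL1A1 and SPARC were high in DMSO (medians of 1868, 452 and 2137 TPM, a level scaled to transcript length and library total), COL1A2 was near 0, and the markers of blood, epithelial, endothelial and liver cells did not exceed 3.73 TPM in any DMSO well. Libraries of a single group differed in GC slope, the change in log2 expression per 10 percentage points of transcript GC content, which ran from -0.14 to 0.58 in the DMSO wells, from 0.39 to 0.53 at 10000 nM triptolide and from -0.33 to -0.18 at 10000 nM homoharringtonine.

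In DMSO wells, transcript levels scaled to length (TPM) differed up to several-fold between subunits. POLR2F, a small shared subunit, was highest at 279 ± 45.9 TPM (SD, n = 18), followed by POLR2E at 251 ± 39.5. Below them came POLR2H (160 ± 10.9), whose range did not overlap that of POLR2E, then POLR2I (153 ± 40.2), POLR2G (148 ± 16.7) and POLR2C (133 ± 16.01). The lowest were POLR2B (76.5 ± 27.3), POLR2D (76.3 ± 8.79), POLR2A (67.5 ± 18.9) and POLR2K (54.7 ± 18.2). The ranges of all neighbours in this order overlapped except those of POLR2E and POLR2H. Part of the spread moved with GC slope: POLR2B, with 43.8% GC in its transcript, stood at 129 TPM in the DMSO well of lowest slope and at 43.5 in that of highest slope, and POLR2I, with 60.9% GC, stood at 104 and 183. POLR2A, at 55.1% GC, had 63.9 and 59.1 TPM in the same wells.

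POLR2A mRNA moved in opposite directions across the triptolide doses. The DMSO wells had a lowest value of 50.4, a median of 63.3 and a highest of 136 TPM, the last in the shallow replicate 10, and the 17 deeper wells did not exceed 77.2. At 100 nM triptolide the 3 wells had 316, 260 and 322 TPM. All of them lay above every DMSO well, and in the fit on counts POLR2A rose 6.67-fold (log2 2.74 ± 0.10 SE, adjusted p = 5.1e-16), ranking 170 of 18503 genes tested from the top. At 1000 nM the wells had 40.4, 41.5 and 38.9 TPM, all below the lowest DMSO well, whereas the fit, which rescales libraries by TMM, gave a log2 difference of 0.00 ± 0.11 (adjusted p = 0.997). At 10000 nM they had 16.4, 16.4 and 19.5 TPM, and POLR2A fell by 1.11 on the log2 scale (± 0.12, adjusted p = 8.7e-09). The pattern was not particular to POLR2A. Of 18318 genes tested at all 3 doses, 603 (3.29%), POLR2A among them, were higher at 100 nM and lower at 10000 nM. For 233 genes (1.27%) both changes were over 2-fold.

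**Figure D1:**
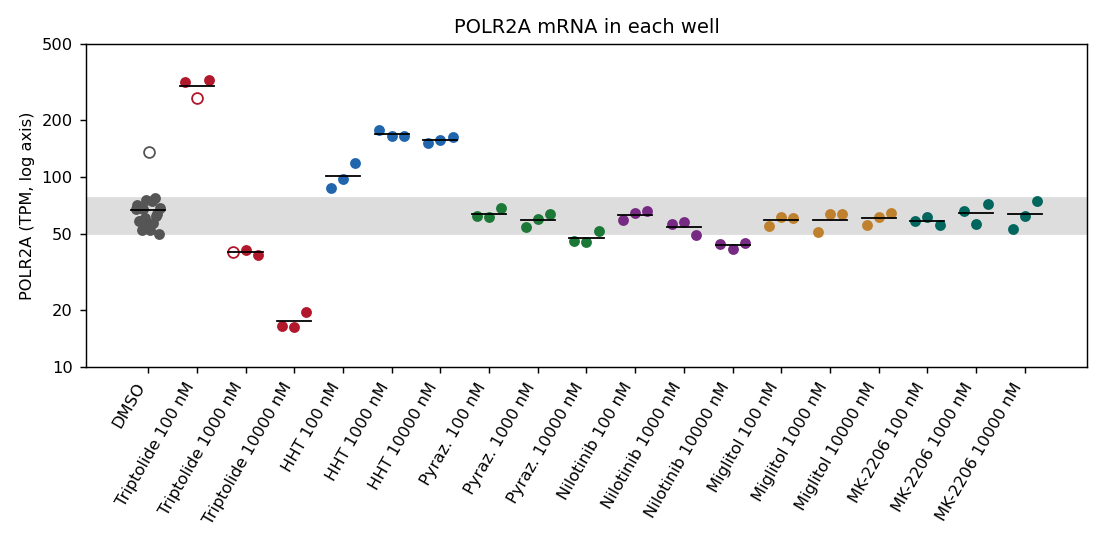
POLR2A level in TPM (log axis) in each well of the 19 groups; points are wells, open points are libraries under 10000000 counts, bars are group means, the grey band is the range of the 17 deeper DMSO wells, and HHT and Pyraz. stand for homoharringtonine and pyrazolanthrone. The 3 wells at 100 nM triptolide sit between 260 and 322 TPM, above every DMSO well, and those at 10000 nM between 16.4 and 19.5, below every DMSO well.

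The rise at 100 nM and the fall at 10000 nM each passed the test in all 12 alternative fits, with log2 values from 1.17 to 2.92 and from -3.89 to -0.93. The value at 1000 nM turned on the scaling, at -0.46 with library sizes only (adjusted p = 0.0026) and -2.45 when libraries were scaled on the 13 mitochondrial mRNAs (adjusted p = 4.6e-08). The mitochondrial share of counts moved with these results, from 0.138 to 0.367% in DMSO, 0.518 to 0.625% at 100 nM, 0.768 to 1.09% at 1000 nM and 1.01 to 1.15% at 10000 nM triptolide. Under that scaling the median of all genes tested moved by a further -1.65, -2.47 and -2.75 at the 3 doses. Fewer cells or less RNA per cell cannot be told apart in such bulk libraries.

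Between doses, POLR2A stood apart from the other subunits. From 100 to 1000 nM triptolide it fell by 2.83 on the log2 scale (± 0.18, adjusted p = 3.1e-08), and POLR2D, of the stalk, fell by 1.06 (± 0.24, adjusted p = 0.0036); these 2 of 10 members stood beside 31.9% of all genes tested in that step. From 1000 to 10000 nM only 3 of 15666 genes passed, 0.0191%, and all 3 were lower: POLR2A (-1.19 ± 0.12), NXF1, the mRNA export receptor (-1.29 ± 0.12), and TOB2, an adaptor of the deadenylase complex (-1.97 ± 0.19), each with an adjusted p of 0.030. NXF1 and TOB2 were named after their values were seen. The POLR2A difference kept a log2 value between -1.44 and -1.14 in 14 alternatives but passed the test in 6 of them, with adjusted p from 8.5e-13 with DESeq2 to 0.50 without 10000 nM replicate 2. Leaving out any of the 6 wells but 1000 nM replicate 3 removed the call, and without that well 909 genes passed. Over the 3 doses the trend of POLR2A was -1.97 ± 0.14 per log10 of dose (adjusted p = 6.2e-06), and it was the only member called, against 24.7% of genes tested.

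Under homoharringtonine POLR2A rose at every dose. The wells had 87.8, 97.9 and 118 TPM at 100 nM, 176, 164 and 164 at 1000 nM, and 152, 157 and 162 at 10000 nM. Only the shallow DMSO well reached into the values at 100 nM, and no DMSO well reached those at the higher doses. The log2 fold changes were 0.92 ± 0.11, 1.49 ± 0.10 and 1.24 ± 0.10, with adjusted p of 1.5e-07, 3.7e-12 and 2.5e-11, and all 12 alternatives called each of them. The step from 100 to 1000 nM was 0.57 ± 0.16 (adjusted p = 0.048), called in 7 of 13 alternatives, and the trend over dose was not called (0.15 ± 0.10, adjusted p = 0.22).

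The other 9 subunits did not follow POLR2A. At 100 nM triptolide 5 of the 10 members were higher than in DMSO (POLR2A, POLR2E, POLR2F, POLR2G and POLR2I), beside 24.5% of all genes tested, and 2 were lower (POLR2D and POLR2H), beside 32.3%. At 1000 nM 5 were higher (POLR2C, POLR2E, POLR2F, POLR2G and POLR2I; 28.8% of all genes) and POLR2D and POLR2H lower (38.6% of all genes). At 10000 nM the same 5 were higher (32.2% of all genes) and POLR2A, POLR2D and POLR2H lower (39.7% of all genes). The median log2 fold change of the members was 0.37, 0.36 and 0.43 at the 3 doses, against -0.16, -0.21 and -0.17 over all genes tested.

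These directions are relative to the library. With library sizes only, the higher and lower counts were 3 and 2, 3 and 4, and 4 and 4 in order of dose. With mitochondrial scaling they were 1 and 8, 0 and 10, and 0 and 10, and only POLR2A at 100 nM stayed higher. Without the libraries under 10000000 counts, the counts were 5 and 1, 6 and 2, and 6 and 3, POLR2H losing its call at 100 nM and POLR2K gaining one at the higher doses.

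POLR2B, the partner of POLR2A in the catalytic centre, did not pass the test in any of the 6 comparisons of triptolide or homoharringtonine with DMSO. Its wells had 36.7, 37.0 and 24.2 TPM at 10000 nM triptolide, all below the lowest DMSO well at 42.0, but the fitted difference was -0.51 ± 0.29 (adjusted p = 0.12). At 10000 nM homoharringtonine they had 93.6, 94.6 and 102 TPM, inside the DMSO range, with a fitted difference of 0.25 ± 0.27 (adjusted p = 0.40); with the GC slope as a covariate this became -0.87 (adjusted p = 5.5e-06). That fit was added after seeing the data.

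The stalk subunits parted under triptolide. POLR2D fell, from 76.3 TPM in DMSO, with 60.7 as its lowest well, to 34.8, 74.8 and 26.3 at 100 nM, 12.6, 12.8 and 18.01 at 1000 nM, and 18.6, 18.5 and 16.6 at 10000 nM. Only the shallow well at 100 nM lay within the DMSO range. The log2 values were -0.72 ± 0.15, -1.69 ± 0.14 and -1.34 ± 0.12, with adjusted p of 0.00020, 1.3e-10 and 4.6e-10. Its partner POLR2G rose, by 0.41 ± 0.14, 0.54 ± 0.11 and 0.90 ± 0.10, with adjusted p of 0.014, 0.00012 and 1.9e-08. The call at 100 nM held in 6 of 11 alternatives. In TPM, however, the POLR2G wells had 155, 130 and 109 at 100 nM and 129, 126 and 160 at 1000 nM. Both means were below that of DMSO (148). At 10000 nM (173, 177 and 151) the wells did not leave the DMSO range of 125 to 177. The fit on counts called the rise at 10000 nM in 11 of 12 alternatives, and mitochondrial scaling turned it (-1.88).

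Among the subunits shared with RNA polymerases I and III, POLR2F and POLR2E rose and POLR2H fell at all 3 triptolide doses. POLR2F had 458, 573 and 581 TPM at 100 nM against at most 364 in DMSO, with log2 values of 1.43 ± 0.18, 1.16 ± 0.17 and 0.95 ± 0.16 in order of dose. At 10000 nM its wells (304, 318 and 340 TPM) were within the DMSO range. POLR2E had log2 values of 0.69 ± 0.14, 1.10 ± 0.12 and 0.96 ± 0.12, and its 9 wells, between 294 and 435 TPM, were above all 17 deeper DMSO wells. POLR2H had 94.7, 112 and 70.2 TPM at 100 nM, 62.3, 60.5 and 67.0 at 1000 nM, and 66.1, 68.3 and 62.6 at 10000 nM. Every well lay below the lowest DMSO value of 124, and the log2 values were -0.33 ± 0.14, -0.70 ± 0.12 and -0.57 ± 0.11 (adjusted p = 0.049, 1.2e-05 and 7.2e-05). POLR2K did not pass at any dose in edgeR, with log2 values of 0.33, 0.33 and 0.35, and DESeq2 called it higher at 1000 and 10000 nM (0.48 and 0.53).

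POLR2I, near the jaw, rose by 0.70 ± 0.18, 1.10 ± 0.15 and 1.14 ± 0.15 (adjusted p = 0.0020, 8.7e-07 and 1.8e-07). Its wells at 10000 nM had 190, 195 and 211 TPM, above the 17 deeper DMSO wells and below the shallow one at 288. POLR2C, of the assembly platform, had log2 values of 0.08 ± 0.11, 0.39 ± 0.10 and 0.51 ± 0.09 and passed at the higher doses. Its TPM at 10000 nM (116, 102 and 112) was nevertheless below the DMSO median of 131, and with library sizes only its log2 value there was -0.02 (adjusted p = 0.83).

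**Figure D2:**
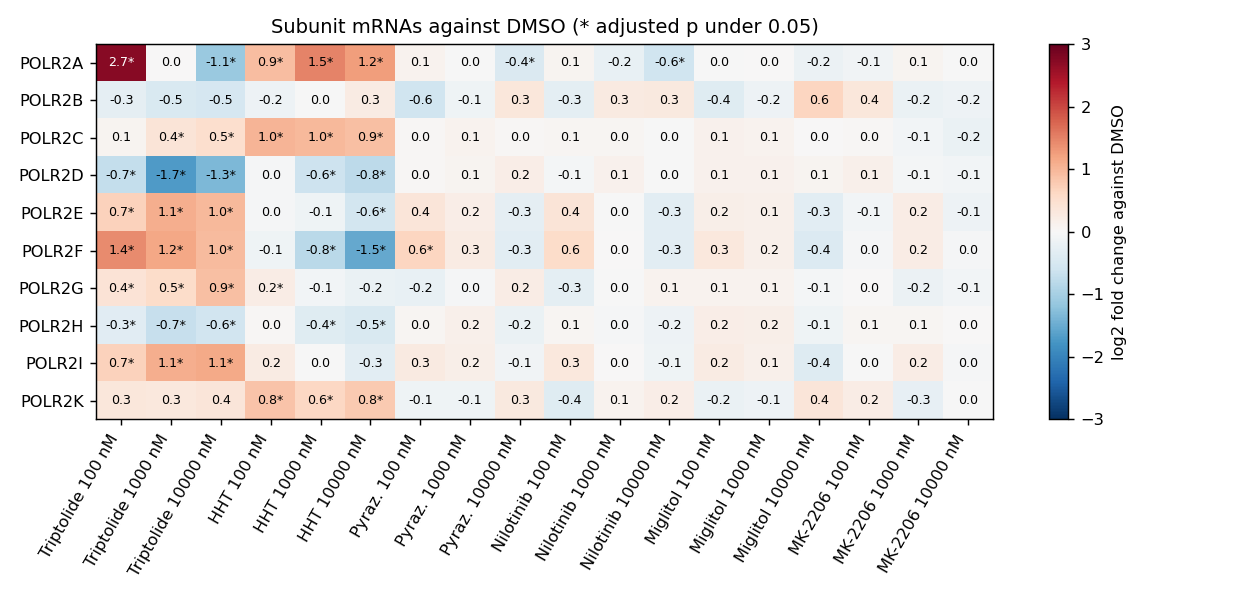
Log2 fold change against the 18 DMSO wells for each subunit gene (rows) and each compound and dose (columns, 3 wells each), with an asterisk where the adjusted p from edgeR was under 0.05. Calls concentrate in the triptolide and homoharringtonine columns, and POLR2A runs from 2.7 to -1.1 across the triptolide doses.

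Under homoharringtonine a different set moved. At 100 nM POLR2A, POLR2C, POLR2G and POLR2K were higher, beside 31.1% of all genes tested, and none was lower in edgeR, beside 32.3% of all genes; at an unadjusted p under 0.05 and by DESeq2 the count of lower members was also 0. The rise of POLR2G (0.23 ± 0.10, adjusted p = 0.043) was called in none of the 12 alternatives. At 1000 nM POLR2A, POLR2C and POLR2K were higher (35.0% of all genes) and POLR2D, POLR2F and POLR2H lower (33.4% of all genes). At 10000 nM the same 3 were higher (36.7% of all genes), and POLR2D, POLR2E, POLR2F and POLR2H were lower (37.2% of all genes). The median of the members was 0.13, -0.05 and -0.26 against -0.03, -0.01 and -0.05 over all genes.

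POLR2C had 224, 224 and 244 TPM at 100 nM, 286, 234 and 213 at 1000 nM, and 230, 228 and 224 at 10000 nM of homoharringtonine. No DMSO well reached these values, and the log2 fold changes were 1.01 ± 0.08, 0.97 ± 0.08 and 0.91 ± 0.08. POLR2F had 207, 224 and 243 TPM at 100 nM, 203, 144 and 121 at 1000 nM, and 111, 111 and 103 at 10000 nM. It left the DMSO range downward at 1000 nM, with log2 values of -0.12 ± 0.18, -0.81 ± 0.22 and -1.53 ± 0.19. POLR2D had log2 values of -0.63 ± 0.11 and -0.78 ± 0.12, and POLR2H of -0.35 ± 0.12 and -0.45 ± 0.11, at 1000 and 10000 nM, all called lower. POLR2K, the member of lowest GC content at 36.1%, rose by 0.85 ± 0.19, 0.62 ± 0.19 and 0.79 ± 0.18, and with the GC slope as a covariate by 0.55, 0.27 and 0.21, the last with an adjusted p of 0.17.

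**Figure D3:**
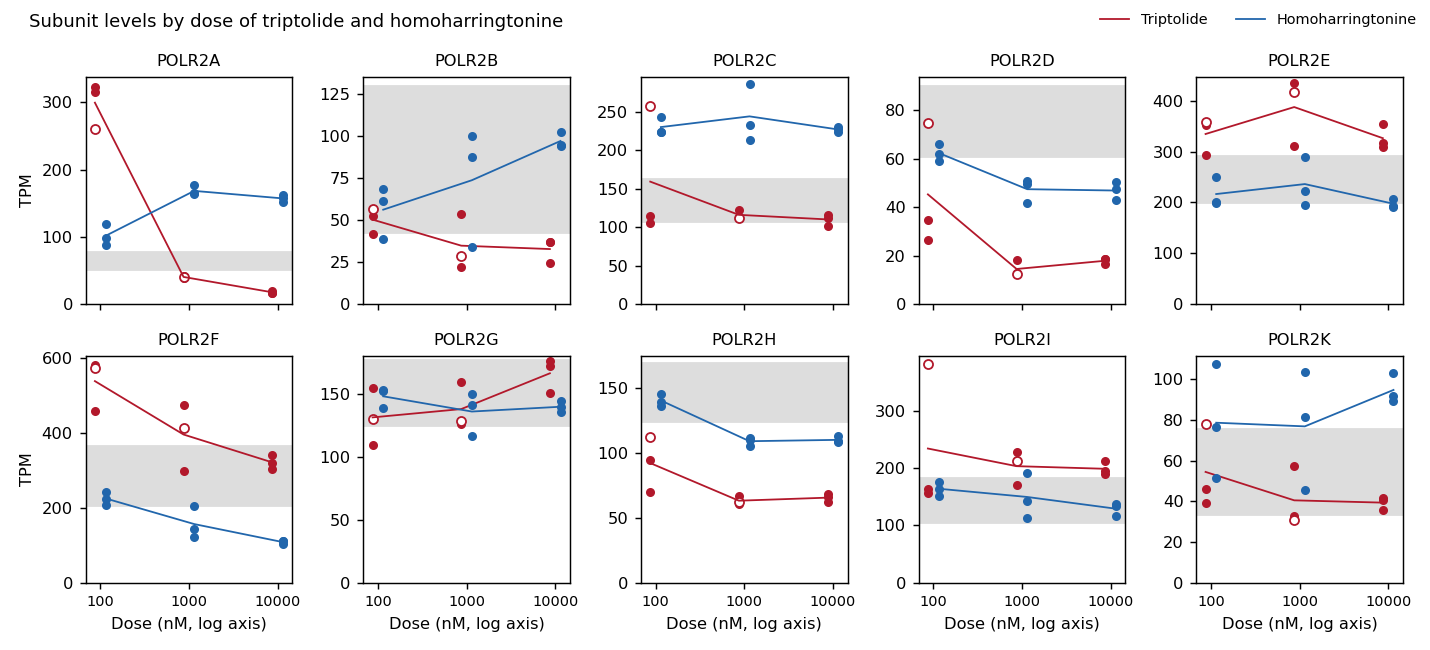
Level in TPM of each subunit gene by dose (log axis) of triptolide (red) and homoharringtonine (blue); points are wells, open points are libraries under 10000000 counts, lines join group means, and the grey band is the range of the 17 deeper DMSO wells. POLR2A falls below the band at 1000 and 10000 nM triptolide, POLR2C lies above it at every dose of homoharringtonine, and POLR2H lies below it at every dose of triptolide.

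The GC slope of the libraries moved with the homoharringtonine results. With it as a covariate POLR2F at 10000 nM was -0.84 (adjusted p = 4.2e-07), and POLR2E, called lower at -0.55 ± 0.12, was -0.06 (adjusted p = 0.35). POLR2A was 1.51 and POLR2C 0.87 in the same fit, both called. Over the 3 doses 6 members fell with dose (POLR2D, POLR2E, POLR2F, POLR2G, POLR2H and POLR2I), beside 44.0% of all genes tested, with slopes from -0.72 ± 0.11 per log10 of dose for POLR2F to -0.22 ± 0.06 for POLR2G. Leaving out replicate 2 or replicate 3 left 2 of these calls. In the step from 100 to 1000 nM POLR2A and POLR2D were called (POLR2D at -0.60 ± 0.12, adjusted p = 0.016), beside 19.3% of genes, with 0 calls without homoharringtonine 1000 nM replicate 2 or 100 nM replicate 1 or 2, 1 without replicate 3 of either dose and 5 without 1000 nM replicate 1. From 1000 to 10000 nM none passed in edgeR, beside 1.57% of all genes, 1 had an unadjusted p under 0.05, and DESeq2 also called 0.

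The 2 compounds were compared directly at each dose. At 100 nM POLR2A was 3.71-fold higher under triptolide (log2 1.89 ± 0.22, adjusted p = 7.4e-07), at 1000 nM it was lower (log2 -1.501 ± 0.14, adjusted p = 3.2e-05), and at 10000 nM lower again (log2 -2.26 ± 0.09, adjusted p = 1.4e-09). With mitochondrial scaling the difference at 100 nM was 0.36 (adjusted p = 0.12). In all, 6, 7 and 9 members differed at the 3 doses, beside 65.5%, 66.8% and 88.4% of all genes tested, so the share of members was near that of genes at large. POLR2F had the largest of the other differences, 1.62 ± 0.17, 1.96 ± 0.29 and 2.57 ± 0.09 higher under triptolide, and POLR2E followed at 10000 nM with 1.60 ± 0.08. Both turned on the scaling: on mitochondrial mRNAs the values at 10000 nM were -0.01 for POLR2F and -0.99 for POLR2E. With the GC slope as a covariate 4 members were called at 10000 nM (POLR2A, POLR2E, POLR2F and POLR2G).

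The share of POLR2A in the summed TPM of the 10 genes does not depend on the scaling of libraries. It was 4.78 ± 0.94% in DMSO, with 3.74% as the lowest, 4.78% as the median and 7.78% as the highest well. The wells at 100 nM triptolide had 18.5, 11.4 and 17.6%, those at 1000 nM 2.77, 2.67 and 3.01%, and those at 10000 nM 1.29, 1.28 and 1.47%. In TPM these groups did not overlap with DMSO in either direction. As a share of counts, DMSO wells had 19.0 to 29.4%. The wells at 1000 nM triptolide had 18.9 to 19.9% of counts and overlapped them, whereas those at 100 and 10000 nM did not. In TPM, homoharringtonine wells had 6.28, 6.93 and 8.11% at 100 nM, 11.8, 11.9 and 12.5% at 1000 nM, and 11.5, 12.0 and 12.5% at 10000 nM. The shallow DMSO well reached into the lowest of these doses only. The ratio of POLR2A to POLR2B, which varied in DMSO from 0.43 to 1.93, was 4.61 to 7.56 at 100 nM triptolide and 0.44 to 0.81 at 10000 nM, the last within the DMSO range. The summed TPM of the other 9 genes was 1332 ± 93.4 in DMSO and 1278 ± 25.2 at 10000 nM triptolide. POLR2A changed far more than this sum, in which members moved in opposite directions. As a fraction of the DMSO mean TPM, POLR2D was at 0.23, POLR2H at 0.41 and POLR2B at 0.43, beside 0.26 for POLR2A. POLR2K and POLR2C were at 0.72 and 0.83. POLR2E, POLR2F, POLR2G and POLR2I were at 1.30, 1.15, 1.12 and 1.30.

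**Figure D4:**
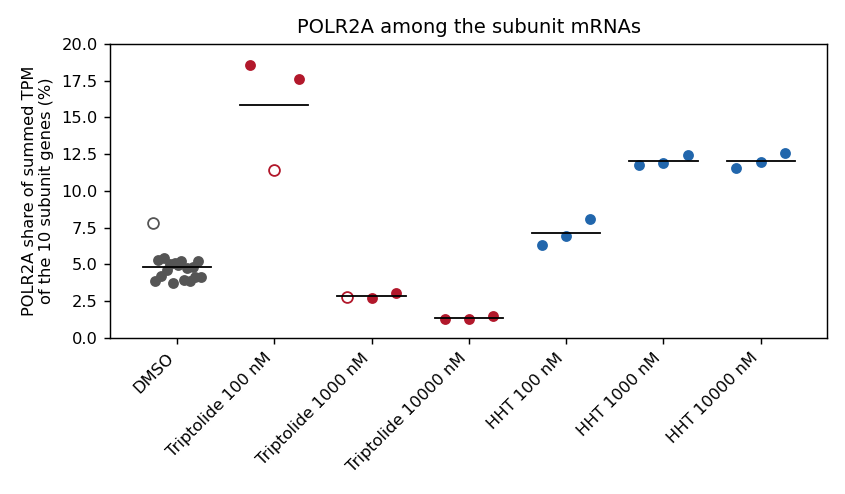
Share of POLR2A in the summed TPM of the 10 subunit genes (percent) in each well of the DMSO, triptolide and homoharringtonine (HHT) groups; points are wells, open points are libraries under 10000000 counts and bars are group means. The share is 11.4 to 18.5% at 100 nM triptolide and 1.28 to 1.47% at 10000 nM, on either side of DMSO.

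Under the other 4 compounds 3 of 120 tests of members passed, beside 3.71% of tests over all genes; 15 had an unadjusted p under 0.05. At 10000 nM nilotinib, a kinase inhibitor, POLR2A wells had 44.5, 41.8 and 44.95 TPM, all below the lowest DMSO well. It fell by 0.60 ± 0.11 on the log2 scale (adjusted p = 0.00063), a call that all 12 alternatives shared. At 10000 nM pyrazolanthrone, an inhibitor of JNK kinases, POLR2A had 46.4, 45.4 and 51.8 TPM, with 2 wells below the DMSO range, and was lower (log2 -0.43 ± 0.11, adjusted p = 0.018), called in 9 of 12 alternatives; without replicate 1 or 2 the adjusted p was 0.17 or 0.13. POLR2F was higher at 100 nM pyrazolanthrone (0.64 ± 0.17, adjusted p = 0.033), called in 6 of 12 alternatives and lost without replicate 2 or 3. Leaving out replicate 1 of each combination gave 10 calls over these compounds, leaving out replicate 2 gave 1, and the count was 15 with the replicate block, 9 with mitochondrial scaling and 7 with the GC slope as a covariate. No member passed under miglitol, a glucosidase inhibitor, or MK-2206, an AKT inhibitor, in edgeR or DESeq2, although 4 members at 10000 nM miglitol and 1 at 10000 nM MK-2206 had an unadjusted p under 0.05. For POLR2A the log2 values over the 12 combinations ran from -0.60 to 0.11.

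Over the doses of these 4 compounds 7 trends of members passed, beside 9.33% of tests over all genes. POLR2A fell with the dose of nilotinib (-0.35 ± 0.07 per log10 of dose) and pyrazolanthrone (-0.28 ± 0.07), POLR2E and POLR2F fell with pyrazolanthrone (-0.33 ± 0.09 and -0.49 ± 0.10), and with miglitol POLR2F and POLR2I fell (-0.36 ± 0.09 and -0.31 ± 0.08) and POLR2B rose (0.51 ± 0.14). Without replicate 2 or without replicate 3, none of the trends passed, and with the GC slope as a covariate 2 did, whereas mitochondrial scaling gave 18, DESeq2 13 and the replicate block 11.

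The mean transcript length that RSEM assigns to a gene follows the mix of its isoforms. At 10000 nM triptolide 1 member, POLR2E, left the range of the 17 deeper DMSO wells, beside 7.54% of 17465 genes; with the shallow libraries included the count was 0. Its length was 1130 ± 15.6 bases against 1265 ± 16.7 in DMSO. At 10000 nM homoharringtonine POLR2E (1156 ± 10.5) and POLR2F (614 ± 3.23 against 629 ± 5.39) were shorter and POLR2H (946 ± 11.9 against 858 ± 10.3) longer, beside 8.96% of genes; with the shallow libraries included POLR2H was the only member outside. POLR2A had 6719 ± 12.1 under triptolide and 6665 ± 27.8 under homoharringtonine, against 6615 ± 89.4 in DMSO. The highest length of a deeper DMSO well was 6718, and the triptolide wells at 10000 nM ran from 6711 to 6733, so they overlapped the upper end of the DMSO range.

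Related genes gave the setting. Their directions, here and in the lists that follow, are from the main fit and relative to the library. They are not given under the other scalings, of which mitochondrial scaling moved the median of all genes down at every triptolide dose. Of the other POLR2 genes 5 were tested, and at 10000 nM triptolide 3 were higher, beside 32.2% of all genes: POLR2L, shared with the other polymerases (1.02 ± 0.16), POLR2J, the partner of POLR2C (0.999 ± 0.12), and its near copy POLR2J3 (0.79 ± 0.08), whose reads may be split with POLR2J. POLR2M did not pass there (-0.08 ± 0.15). Subunits particular to RNA polymerase I went the other way: all 6 were lower at 1000 and 10000 nM triptolide, with a median of -2.07 at 10000 nM against -0.17 over all genes, of which 38.6% and 39.7% were lower, and POLR1B, its second largest subunit, had 1.43 to 1.94 TPM against 34.8 ± 14.2 in DMSO. Of 11 subunits of RNA polymerase III, 8 were lower and 3 higher at 10000 nM (39.7% and 32.2% of all genes), from POLR3B at -4.08 ± 0.20 to POLR3G at 0.48 ± 0.17. In TPM, however, POLR3G did not rise, at 15.5 ± 3.15 against 17.4 ± 4.31 in DMSO. Under 10000 nM homoharringtonine 2 of the 6 and 5 of the 11 were higher, and 2 and 6 lower, beside 36.7% and 37.2% of all genes; POLR1G (-2.29 ± 0.16) had the largest fall among the 6, and POLR1F (0.90 ± 0.22) and POLR3F (1.45 ± 0.08) had the largest rises in their lists. Of the pair shared by polymerases I and III, POLR1C fell by 2.07 ± 0.13 at 10000 nM triptolide and POLR1D by 0.59 ± 0.10 at 10000 nM homoharringtonine.

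Among 21 general initiation factors, which place the polymerase at promoters, 12 were lower and 3 higher at 10000 nM triptolide, beside 39.7% and 32.2% of all genes. GTF2B, which bridges the polymerase to the promoter, had 0.22 to 0.39 TPM there against 26.7 ± 7.24 in DMSO (-5.70 ± 0.36), whereas TAF10 was 1.17 ± 0.10 higher. At 10000 nM homoharringtonine 13 were higher and 3 lower, beside 36.7% and 37.2% of all genes, and GTF2B had 128 to 145 TPM (2.28 ± 0.17), while TAF6 was the largest fall (-1.03 ± 0.12). Of 12 genes acting on the C-terminal domain, mostly kinases and phosphatases, 10 were lower and 2 higher at 10000 nM triptolide (39.7% and 32.2% of all genes). The phosphatase CTDP1 was at -4.40 ± 0.22 and RPRD1A at 0.87 ± 0.12. In TPM, however, RPRD1A was level, at 20.4 ± 1.57 against 20.2 ± 3.33 in DMSO. Under 10000 nM homoharringtonine 5 were higher, led by the kinase CDK7 (2.27 ± 0.11), and 5 lower, led by CTDSPL (-3.33 ± 0.14), shares near those of all genes (36.7% and 37.2%).

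Of 15 genes for assembly and nuclear import of the polymerase 8 were higher and 3 lower at 10000 nM triptolide (32.2% and 39.7% of all genes), from UXT (1.07 ± 0.11) to PDRG1 (-3.22 ± 0.16). At 10000 nM homoharringtonine 6 were higher and 3 lower (36.7% and 37.2% of all genes), from SLC7A6OS (2.34 ± 0.08) to URI1 (-1.73 ± 0.21). Of 14 ligases and repair factors that act on POLR2A protein 6 were higher and 5 lower at 10000 nM triptolide, near the 32.2% and 39.7% of all genes. ELOB, the elongin B subunit of ubiquitin ligases, was 1.20 ± 0.13 higher, and ARMC5, an adaptor of a ubiquitin ligase for POLR2A, had 0.15 to 0.30 TPM against 16.6 ± 5.18 in DMSO (-5.41 ± 0.27). Under 10000 nM homoharringtonine 9 were higher, led by the repair factor ERCC6 (1.33 ± 0.12), and 3 lower, led by VHL (-0.996 ± 0.15), beside 36.7% and 37.2% of all genes.

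Finally, genes were ranked by how closely their log2 fold changes over the 18 combinations followed those of POLR2A, among 9389 protein-coding genes tested in all 18 with at least 10 CPM in DMSO. The combinations share the DMSO wells, and the correlations are descriptions. The closest were AOC2 (Pearson r = 0.97), SLC16A3, a lactate transporter (0.95), NDOR1 (0.92), NGFR, a neurotrophin receptor (0.91), and XAB2, a splicing and repair factor (0.90). AOC2 had fitted log2 values of 1.81, -0.35 and -0.62 at the 3 triptolide doses and of 0.77, 1.11 and 1.04 at those of homoharringtonine. Among the subunits the correlation with POLR2A ran from -0.19 for POLR2D to 0.40 for POLR2C.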

How the data were processed

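Per the labels, poly(A) RNA of 72 wells of U2OS cells was made into stranded TruSeq libraries, and the submitters' processing notes name HTSeq, RSEM, DESeq2 and GRCh38; versions are not given in the sources used here. The authors deposited, for each gene, an expected count (an RSEM estimate of its reads, without normalization and often with decimals), a TPM value (divided by transcript length, with each library brought to the same total) and an FPKM value (divided by length and by mapped reads). Symbols and positions came from GENCODE 44, which held 56104 of the 60371 identifiers.

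The main test used edgeR 4.0.16 under R 4.3.3 on rounded expected counts (TMM, filterByExpr with its smallest count of 10, quasi-likelihood F-test, Benjamini-Hochberg adjustment over all genes tested, called under 0.05). Each compound and dose was set against all 18 DMSO wells, triptolide against homoharringtonine, and doses against each other and on log10 dose. Alternatives were DESeq2 1.42.0, library sizes only, scaling on 13 mitochondrial mRNAs, no filter, 10 counts in every well, leaving out libraries under 10000000 counts or single wells, a replicate block and 1 fit over all wells; GC slope as a covariate was added after seeing the data. On simulated counts each of 6 tests recovered all 200 genes changed by a log2 fold change of 2. These changes were balanced between rises and falls, so the simulation did not test the scaling under triptolide or homoharringtonine. Of 207 pairs of replicates none differed by less than sampling noise (lowest chi-square per degree of freedom 1.35).

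The members, the related lists and the tests were chosen with earlier results of these data known. Named were the 10 members; from each related list the largest riser and faller past the test at 10000 nM triptolide and 10000 nM homoharringtonine; and the 5 genes most like POLR2A. The result for 1 gene that this rule names is not reported here. Doses follow the labels (the middle one 1000 nM). Intervals are exact binomial at 95%. Promoter letters were read from RefSeq windows on GRCh38, for motifs on both strands.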

Additional observations from a re-analysis of the deposited data

Results flagged for a closer look

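POLR2A, POLR2E and POLR2F were called in opposite directions against DMSO by triptolide and homoharringtonine, and the difference between the compounds was tested directly. At 10000 nM the log2 difference, triptolide minus homoharringtonine, was -2.26 for POLR2A, 1.60 for POLR2E and 2.57 for POLR2F, and at 1000 nM it was 1.96 for POLR2F. The POLR2A difference kept its sign and its call in every alternative run at 10000 nM, whereas those of POLR2E and POLR2F turned with mitochondrial scaling. POLR2A was also called higher at 100 nM and lower at 10000 nM of triptolide, with a trend of -1.97 per log10 of dose. That pair of directions was shared by 3.29% of genes tested at all 3 doses. The outlier search used here covers groups of 4 to 10 wells, so neither the groups of 3 nor the 18 DMSO wells were searched.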

How the results depend on the processing

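Of 282 alternative values for the counts of called subunits, 218 stayed within 1.5 times the reported count. For the single subunits, 132 values lost a call, 105 gained one and 28 turned a called direction; where no value is given for a cause, the cause was not tested.

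Scaling had the largest effect. On the 13 mitochondrial mRNAs, triptolide at 100, 1000 and 10000 nM gave 1, 0 and 0 higher and 8, 10 and 10 lower subunits; homoharringtonine at 1000 nM gave 1 lower; the other 4 compounds gave 9 calls and 18 trends; the triptolide steps gave 7 and 0 and its trend 9; and the first homoharringtonine step gave 0 and its trend 2. Turned under this scaling against DMSO were, at 100 nM triptolide, POLR2E (-0.99), POLR2F (-0.21), POLR2G (-1.21) and POLR2I (-0.95); at 1000 nM POLR2C (-2.09), POLR2E (-1.37), POLR2F (-1.30), POLR2G (-1.92) and POLR2I (-1.38); and at 10000 nM POLR2C (-2.27), POLR2E (-1.86), POLR2F (-1.89), POLR2G (-1.88) and POLR2I (-1.70). Against homoharringtonine they were POLR2E (-0.81) and POLR2I (-1.12) at 100 nM, POLR2E (-1.20), POLR2F (-0.47), POLR2G (-1.75) and POLR2I (-1.32) at 1000 nM, and POLR2E (-0.99), POLR2F (-0.0145), POLR2G (-1.40) and POLR2I (-1.04) at 10000 nM. With library sizes only, triptolide gave 3 higher at 100 nM, 3 higher and 4 lower at 1000 nM and a trend count of 2, homoharringtonine gave 1 lower at 100 nM and a trend count of 2, and POLR2C turned at 1000 nM (-0.0701) and 10000 nM triptolide (-0.0212).

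With the GC slope as a covariate, added after seeing the data, homoharringtonine gave 1 lower at 100 nM and 5 higher at 1000 nM, its steps 7 and 1, triptolide steps 4 and 3 and trend 3, the compounds differed in 4 subunits at 10000 nM, and the other 4 compounds gave 7 calls and 2 trends; POLR2B (0.76) and POLR2K (0.29) turned between the compounds at 10000 nM. A minimum of 10 counts in every well gave 2 higher at 100 nM triptolide, 1 in its first step and 2 in its trend; DESeq2 gave 2 in that trend and 13 trends for the other compounds. Without the libraries under 10000000 counts, 1 subunit was lower at 100 nM triptolide and 0 were called in its last step.

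Leaving out single wells gave 1 to 2 lower at 100 nM triptolide. The triptolide steps gave 1 to 5 and 0 to 3, and the first homoharringtonine step 0 to 5. Leaving out the same replicate number from each combination gave 1 to 10 calls for the other 4 compounds. For trends a replicate number was left out at all 3 doses together. That gave 0 to 8 trends for the other 4 compounds and 2 to 6 for homoharringtonine. Where a group was left with fewer wells the spread was pooled.

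The labels do not say whether replicate numbers pair the wells. Deviations of same-numbered treated and DMSO wells correlated from -0.66 to 0.55 over 18 pairs (mean -0.00). Those of other pairs ran from -0.77 to 0.74 (mean -0.01). A batch shared by wells of the same number was not tested. The replicate block gave 1 lower at 100 nM homoharringtonine, 0 in its first step, 0 in the last triptolide step, 15 calls for the other 4 compounds and 11 of their trends. POLR2A at 100 and 10000 nM triptolide stayed called in the fit with this block, at 2.51 and -1.18.

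Depth limits triptolide 100 nM replicate 2, where POLR2K had 3 counts.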
